A study of Homo sapiens with 5 samples.

Results

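The locus described here is a stretch of 150 kb on chromosome 22 that holds LIF and OSM, the neighbouring genes of a pair of related cytokines. Its members are all peaks that overlapped positions 30560000 to 30710000 of the hg19 build in lists from RH18 and RD. These are established lines grown from fusion-negative rhabdomyosarcoma, a muscle-like tumour of soft tissue that lacks the PAX3 or PAX7 gene fusion of other rhabdomyosarcomas. There were 61 members among the 100703 peaks listed in all. Of these, 36 of 46408 came from histone H3 acetylated at lysine 27 (H3K27ac) in RH18, 10 of 11136 from the transcription factor MYF5 in RH18, and 15 of 43159 from H3K27ac in RD. Cells of every group were grown in serum-containing medium (no other treatment is stated) and fixed in 1% formaldehyde for 12 minutes before chromatin immunoprecipitation and sequencing. Each group was 1 library of 1 line, so nothing below has a replicate check, and intervals cover counting error only. The input DNA samples had no list here. The members were chosen by position alone, but the locus was selected on its listed H3K27ac and MYF5 peaks with earlier results of these data known. Counts and heights of its peaks are therefore descriptions and carry no test.

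LIF (leukaemia inhibitory factor) and OSM (oncostatin M) are secreted proteins of the interleukin-6 family. Both act through receptors that contain gp130, the product of IL6ST, paired with LIFR or, for OSM, with OSMR, and both switch on JAK kinases and the transcription factor STAT3. LIF is known for keeping mouse embryonic stem cells undifferentiated and for stimulating the growth of myoblasts. H3K27ac is found at enhancers and promoters in use, and MYF5 is a basic helix-loop-helix factor of muscle progenitors that binds DNA motifs called E-boxes. In hg19, LIF lies at 30.636 to 30.643 Mb and OSM at 30.658 to 30.663 Mb, positions known here to the nearest kb. Both genes are read towards lower positions, so the start of each is its upper end, and OSM lies upstream of LIF. In the RefSeq gene order the antisense RNAs LIF-AS1 and LIF-AS2 flank LIF, and OSM is followed by CASTOR1, an arginine sensor, and TBC1D10A, a regulator of RAB GTPases. Exon and promoter positions in hg19 were not used here, so peaks are placed only by their distance from these kb-rounded bounds. Whether peaks beyond OSM lie at CASTOR1, TBC1D10A or their promoters was not examined.

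Peak heights are given in a unit that takes the depth of each library into account. The tags sequenced at a summit were worked out from the authors' fold and p-value and divided by the number that the genome-wide background of the same list gives. A height of 100 therefore means 100 times the background tags. The median height of all regions was 35.96 for RH18 H3K27ac and 36.3 for RD H3K27ac, and it was 26.9 for MYF5. The upper ends of the H3K27ac lists were less alike, with a 95th percentile of height of 140.1 in RH18 and 87.2 in RD. Folds as deposited by the authors are also given, but they are compressed to different degrees in the lists and are not compared between lines. Differences in height between lines include any difference in how well each immunoprecipitation worked.

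The widest H3K27ac region of the whole RH18 list lay over LIF. It ran from 30633603 to 30652915 (19.3 kb, fold 61.4) and took in the entire gene, 2.40 kb beyond its lower end and 9.92 kb upstream of its start. Its summit lay 883 bp inside the gene from the rounded start and rested on 301 tags (95% Poisson interval 268 to 337), a height of 189.9 (169 to 213). By width it ranked 1 of 46408 regions, by tags 434. The next widest region, also on chromosome 22 (19858453 to 19876650), measured 18.2 kb, and the third, on chromosome 16 (70720177 to 70732865), 12.7 kb. The LIF region kept rank 1 when regions within 500 bp were joined, but came to rank 6 with joining within 1000 bp. This single region made up 39.7% of the H3K27ac bases of the window in RH18.

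In RD, listed regions covered only 5.93% of the same gene. The only RD region over LIF was 415 bp wide (30642018 to 30642432, fold 5.72) and lay 568 bp from the rounded start. It rested on 73 tags (57.2 to 91.8), a height of 31.2 (24.5 to 39.2), and ranked 25109 of 43159 by tags. Within the 19.3 kb held by the RH18 region, RD regions covered 677 bp, or 3.51%. The other RD region there was 262 bp wide (30634872 to 30635133) and had a height of 20.9. The height of the RH18 region was 6.09 times that of the RD region over LIF, a value from 1 library per line with no test; the RH18 summit was the highest point of 19.3 kb and the RD summit that of 415 bp. As deposited, both lists had a region close to the start of LIF, but the RD one depended on the threshold. The −log10 q-values of the RD regions were 8.56 over LIF and 8.89 for the other one, so at a −log10 q-value of at least 10 no RD region over LIF was left.

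**Figure D1:**
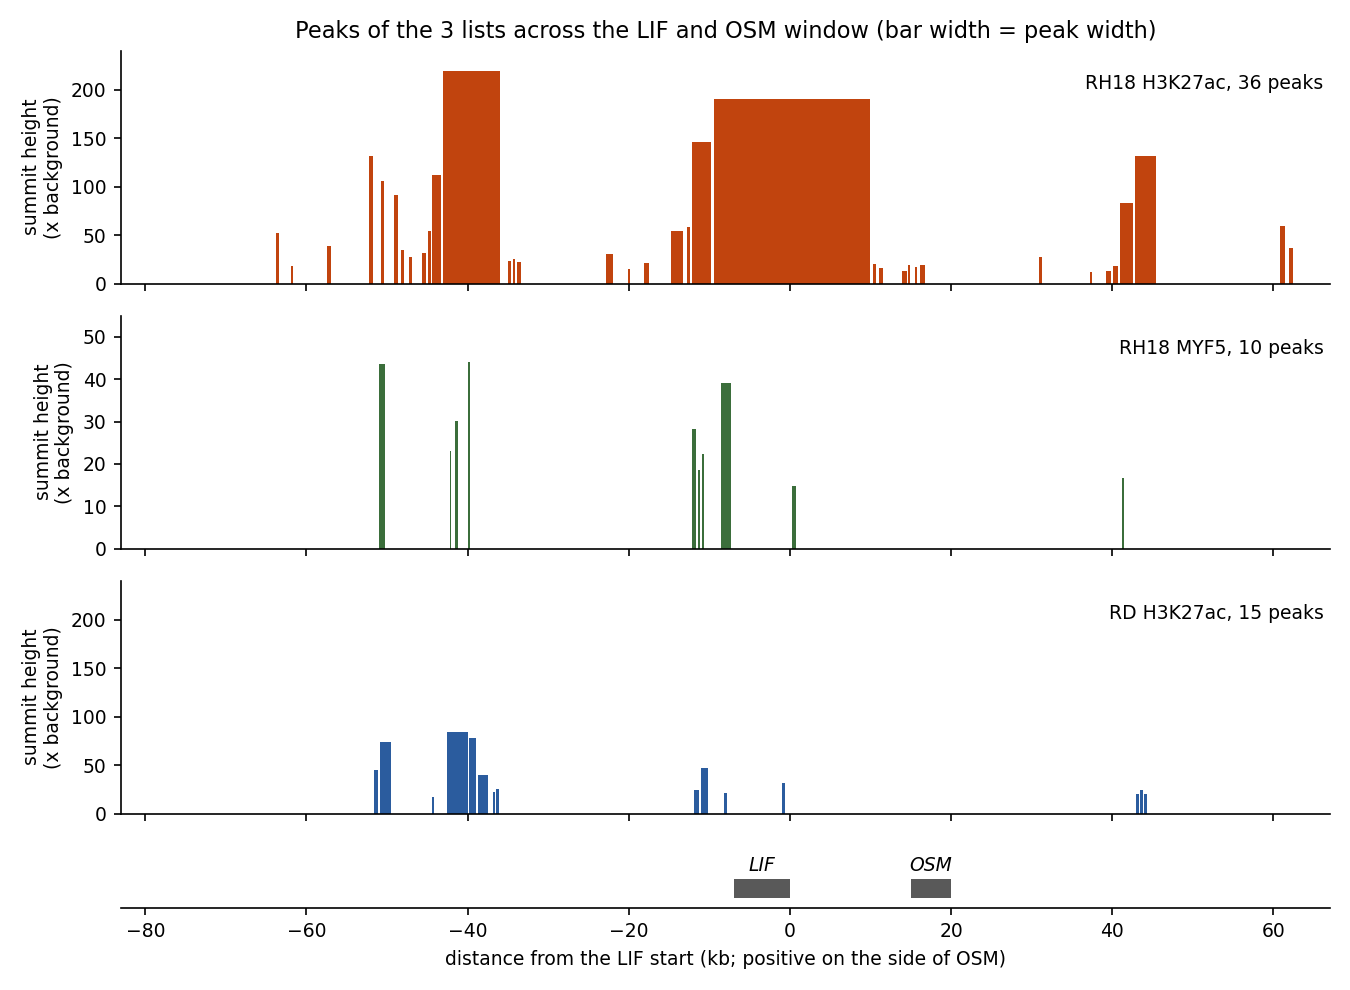
Summit height of each peak (vertical axis, multiples of the genome-wide background of its list) against distance from the rounded LIF start in kb; each bar spans the width of a peak and shows the height of its summit only. The RH18 H3K27ac panel has a 19.3 kb block over LIF with a height of 189.9, where RD has a 415 bp region with a height of 31.2; the MYF5 panel has its own scale.

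At OSM the mark was low in RH18 and not listed in RD. In RH18, 2 regions overlapped the gene, at 30658550 to 30658787 (fold 10.1, 27 tags, height 17.0) and at 30659152 to 30659775 (fold 11.2, 30 tags, height 18.9). Together they covered 17.2% of the gene, and both lay towards its downstream end. No RH18 region lay within 1 kb of the rounded OSM start, and the nearest ended 3.23 kb away. The heights of the OSM regions were below the list's median of 35.96. In RD the nearest region to the OSM start lay 20.6 kb away. The longest stretch of the window without an RD region, 43.5 kb from 30642433 to 30685968, contained all of OSM. In that same stretch RH18 had 11 whole regions covering 6.21 kb, as well as the upstream 10.5 kb of the LIF region. The RH18 LIF region ended 5.09 kb short of the OSM bounds. The RH18 list went down to a −log10 p-value of 7.09 and the RD list to 5.00, while the lowest height among the members was 12.0 in RH18 and 16.7 in RD. The part of these thresholds in the missing RD regions was not tested.

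The members fell into 4 stretches separated by more than 10 kb, a grouping chosen after the values were seen. The first, from 30579209 to 30609655, lay downstream of LIF and held 15 RH18 H3K27ac regions, 4 MYF5 peaks and 8 RD regions. The second, from 30620183 to 30659775, held LIF and part of OSM, with 13 RH18 regions, 5 MYF5 peaks and 4 RD regions. The third, from 30673888 to 30688454 on the upstream side of OSM, held 6 RH18 regions, 1 MYF5 peak and 3 RD regions. The last, from 30703837 to 30705396, held 2 RH18 regions and no other member. The mark was spread differently over these stretches in the lines. In RH18, 57.5% of the window's H3K27ac bases lay in the LIF stretch and 27.4% in the stretch downstream of it. In RD, 19.4% lay in the LIF stretch and 70.3% in the downstream stretch.

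RD regions covered 45.2% of the RH18 bases in the downstream stretch, 7.53% in the LIF stretch and 18.0% in the third stretch. Taken the other way, RH18 regions covered 78.9% of the RD bases in the downstream stretch and 100% in the LIF stretch and the third. The largest RH18 region of the downstream stretch ran from 30599999 to 30607050 (7.05 kb, fold 48.4), with a summit 39 kb from the LIF start. Its 348 tags (312 to 387) gave the greatest height of the window, 219.6 (197 to 244), and rank 102 of 46408 by tags. RD had 5 regions inside it, which covered 5379 bp, or 76.3%, of its length. The tallest of these was 2.60 kb wide (30600448 to 30603046, fold 24.6, 196 tags) and had a height of 83.8 (72.5 to 96.4), also the greatest RD height of the window. The next, at 30603225 to 30604096 (fold 13.3, 183 tags), had a height of 78.2. The third in height, at 30604243 to 30605544 (fold 11.4, 92 tags), had a height of 39.3. An RH18 region with its summit 51 kb from the LIF start, at 30592263 to 30592672 (fold 54.8, 168 tags, height 106.0) lay inside an RD region at 30592066 to 30593506 (fold 29.2, 173 tags, height 74.0). The RD region was the one of highest fold in the window in that line.

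On the LIF side of the next gap, a 2.35 kb RH18 region at 30630809 to 30633162 had a fold of 61.0, 231 tags and a height of 145.7 (128 to 166). Its summit was 11 kb from the LIF start. RD had 2 regions inside it, at 30631149 to 30631706 (fold 9.93, 56 tags, height 23.9) and at 30631904 to 30632779 (fold 18.3, 110 tags, height 47.0). On the far side of OSM, the RH18 region of highest fold in the window ran from 30685842 to 30688454 (fold 75.4, 209 tags, height 131.9). RD had 3 regions inside that one, between 30685969 and 30687355, with heights from 19.7 to 24.4 and folds of 4.53 to 7.83. In RH18 it was preceded by a region at 30683929 to 30685582 with a height of 83.3. That region overlapped no RD region, and the nearest lay 387 bp away.

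The other RH18 members were mostly narrow. Over all 36 the width ran from 238 to 19313 bp with a median of 470 bp, close to the 474 bp of the whole list. Heights ran from 12.0 to 219.6 with a median of 30.9, and 16 of the 36 were above the median of the list. Heights above 100 were reached by 7 members, against 13.1% of the whole list. In RD the 15 widths ran from 236 to 2599 bp with a median of 416 bp. The RD heights ran from 16.7 to 83.8 with a median of 24.8, and 6 of the 15 were above the median of that list. Local background was raised to 4 times the genome-wide value or more at 3 RH18 members, 0 MYF5 members and 2 RD members, against 10.1%, 4.91% and 31.9% of the whole lists. At the LIF region in RH18 the local background was 2.35 times the genome-wide value, and at the RD region over LIF it was 4.16 times.

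Overlap between the lines was unequal in the window. Of the 36 RH18 regions, 6 overlapped an RD region by at least 1 bp, where 45.1% of the whole RH18 list did. Of the 15 RD regions, 14 overlapped an RH18 region, where 60.0% of the whole RD list did. The exception in RD, at 30591355 to 30591935, lay 54 bp from an RH18 region. With at least 50% of both regions asked for, 0 of the 36 RH18 and 0 of the 15 RD regions overlapped, where 25.6% and 27.5% of the whole lists did. At a −log10 q-value of at least 10 in both lists, 7 of 8 RD regions overlapped an RH18 region, where 65.8% of the RD list did. By bases, RH18 regions covered 48.7 kb of the window and RD regions 10.9 kb, a ratio of 4.48, against 1.54 over the whole lists. Bases covered in both lines came to 9.26 kb, or 19.0% of the RH18 bases and 85.2% of the RD bases. Over the whole lists these shares were 38.8% and 59.6%. The RD mark of this window was thus largely contained in wider RH18 regions. Within 500 bp of an RD region, overlaps included, lay 11 of the 36 RH18 regions, where 51.4% of the whole RH18 list did.

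Where regions overlapped, RH18 was taller in all 6 cases, against 66.1% of the 20907 such regions in the whole list. The height of the RH18 region over that of the tallest RD region it overlapped had a median of 4.26 in the window and 1.29 in the whole list. The quotient was lowest, 1.43, for the region at 30592263 to 30592672. It was 2.62 for the 7.05 kb region downstream of LIF and 3.10 for the 2.35 kb region beside the LIF region. At the region on the far side of OSM it was 5.41, and at the LIF region 6.09. The greatest, 6.74, belonged to a region at 30598538 to 30599638, whose RD counterpart was 236 bp wide with a height of 16.7. Among all such regions, the quotient at LIF was higher than 99.3% of them. The 6 RH18 regions were tall for their list, with heights from 106.0 to 219.6, and tall regions reached greater heights in the RH18 list than in the RD list. Their quotients were not compared with those of equally tall RH18 regions elsewhere, so these figures do not show a trait of this locus.

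**Figure D2:**
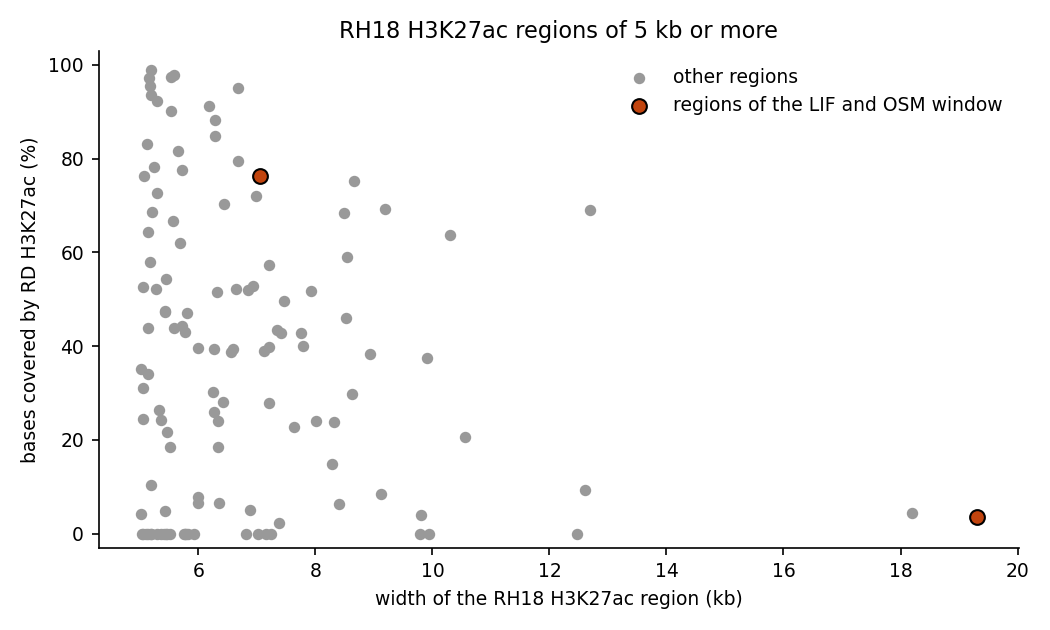
Share of each RH18 H3K27ac region of 5 kb or more that RD H3K27ac regions covered (vertical axis, %) against its width in kb; orange points are the regions of the window and grey points the others. The LIF region stands at 19.3 kb and 3.51%, and the region downstream of LIF at 7.05 kb and 76.3%.

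The LIF region was set beside the other wide regions of RH18, of which 121 measured 5 kb or more. RD regions covered a median of 38.8% of such regions, with quartiles at 5.08% and 62.1%. With 3.51% covered, the LIF region was among 26 regions (21.5%) with that share or less, and 24 of the 121 had no RD base at all. Wide RH18 regions with little cover by listed RD regions were thus also found elsewhere. Among the 10 widest, the covered share ran from 0 to 69.1%. Wide regions were rarer in RD, where 11 measured 5 kb or more and the widest had 7519 bp.

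**Figure D3:**
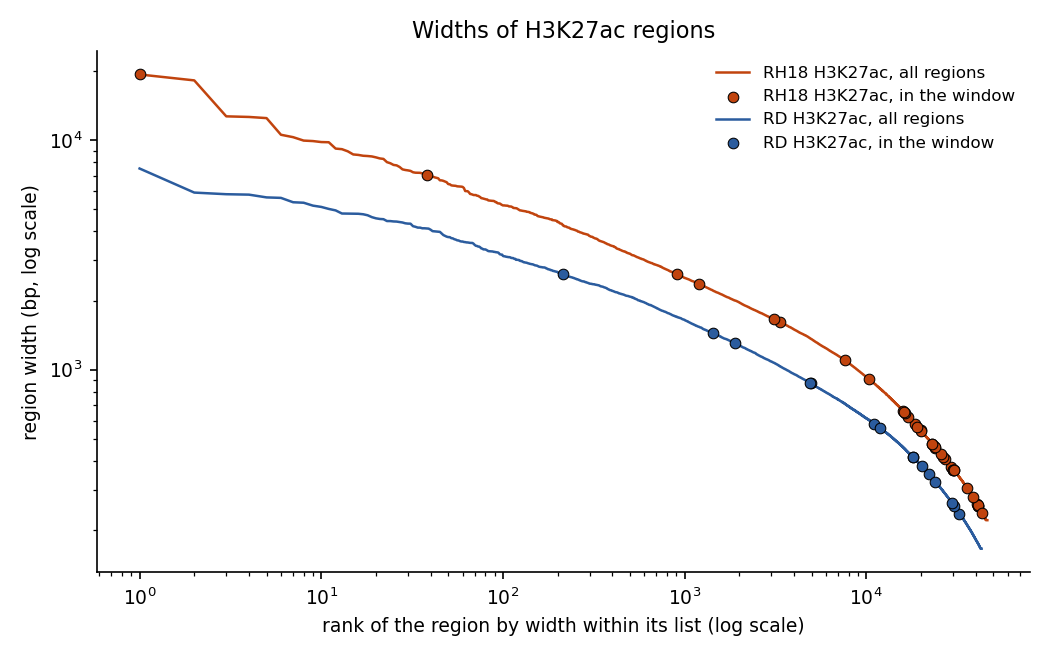
Width of every H3K27ac region in bp against its rank by width within its list, both on log scales; lines are the whole lists and points the members of the window. The LIF region is the leftmost orange point, rank 1 at 19313 bp, and the widest RD member has 2599 bp.

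MYF5 had 10 peaks in the window, and 9 of their summits lay inside an RH18 H3K27ac region, where 55.2% of all MYF5 summits did. Inside an RD region lay 5 of the 10, where 39.9% of the list did. Regions of both lines held 4 of the summits (33.5% in the list), RH18 regions alone 5 (21.7%), and an RD region alone 1 (6.38%), so that no summit was outside the mark in both lines (38.4%). No control immunoprecipitation was analysed here, so the specificity of the MYF5 signal was not tested. No MYF5 summit lay between the rounded bounds of LIF or of OSM. With a margin of 500 bp around RD regions, 8 of the 10 were included, where 62.9% of all MYF5 summits were.

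Of the 4 MYF5 peaks in the stretch downstream of LIF, 2 were the tallest of the window. The one at 30591966 to 30592725 had the highest fold, 21.9, with 68 tags (52.8 to 86.2) and a height of 43.5, and ranked 1020 of 11136 by fold. Its summit, 51 kb from the LIF start, lay in a gap of the RH18 regions, 141 bp from the nearest, and inside the RD region of highest fold. The MYF5 peak as a whole contained that nearest RH18 region, at 30592263 to 30592672. Inside the 7.05 kb RH18 region lay 3 summits. Their peaks were at 30600780 to 30600968 (fold 7.88, 36 tags), at 30601453 to 30601813 (fold 10.2, 47 tags) and at 30603032 to 30603330 (fold 14.3, 69 tags). The first and second of these also lay inside the RD region at 30600448 to 30603046, and the third lay 28 bp from the next RD region. The height of the third, 44.2, was the greatest of the 10 MYF5 peaks.

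Closer to LIF, 3 MYF5 summits sat inside the RH18 region at 30630809 to 30633162. Their peaks were at 30630875 to 30631325 (fold 9.77, 44 tags), at 30631594 to 30631811 (fold 6.69, 29 tags) and at 30632061 to 30632301 (fold 8.89, 35 tags). The second summit lay 24 bp from the summit of that RH18 region and the third 6 bp from an RD summit. The 19.3 kb LIF region held 2 summits, 1.04 per 10 kb, against a median of 1.81 per 10 kb in the RH18 regions of 5 kb or more. By count, the median of those 121 regions was 1 summit, and 31 of them held none. The 2 summits of the LIF region belonged to unlike peaks. One of these 2 peaks, downstream of the gene at 30634486 to 30635652, was the widest of the 10 (1167 bp, rank 91 by width). It had a fold of 16.8, 61 tags (46.7 to 78.4) and a height of 39.1. The other, at 30643294 to 30643726, was the only MYF5 peak within 1 kb of the rounded LIF start. It had a fold of 7.68 and 23 tags (14.6 to 34.5), a height of 14.7, and ranked 10973 of 11136 by tags. The tall H3K27ac of the gene lay beside 1 of the lowest MYF5 peaks of the list.

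The last MYF5 peak, at 30684187 to 30684427 beyond OSM, had a fold of 8.91, 26 tags (17.0 to 38.1) and a height of 16.7. It lay inside the RH18 region at 30683929 to 30685582 and 1675 bp from an RD region. Between 30643726 and this peak there was no MYF5 peak for 40.5 kb, a stretch that includes OSM. Over the 10 peaks, heights ran from 14.7 to 44.2 with a median of 25.6, close to the 26.9 of the list, and 5 of the 10 were above that value. Distances from a MYF5 summit to the nearest H3K27ac summit ran from 24 to 3207 bp in RH18 (median 650 bp) and from 6 to 1752 bp in RD (median 534 bp). In the whole list the medians were 370 and 347 bp. Each region has 1 listed summit, so a MYF5 summit inside a wide region can lie far from that region's summit. The 3207 bp belonged to a MYF5 summit inside the 19.3 kb LIF region. Of the 36 RH18 regions, 4 held a MYF5 summit, where 12.0% of the list did, and of the 15 RD regions 4 did, where 9.71% of that list did.

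**Figure D4:**
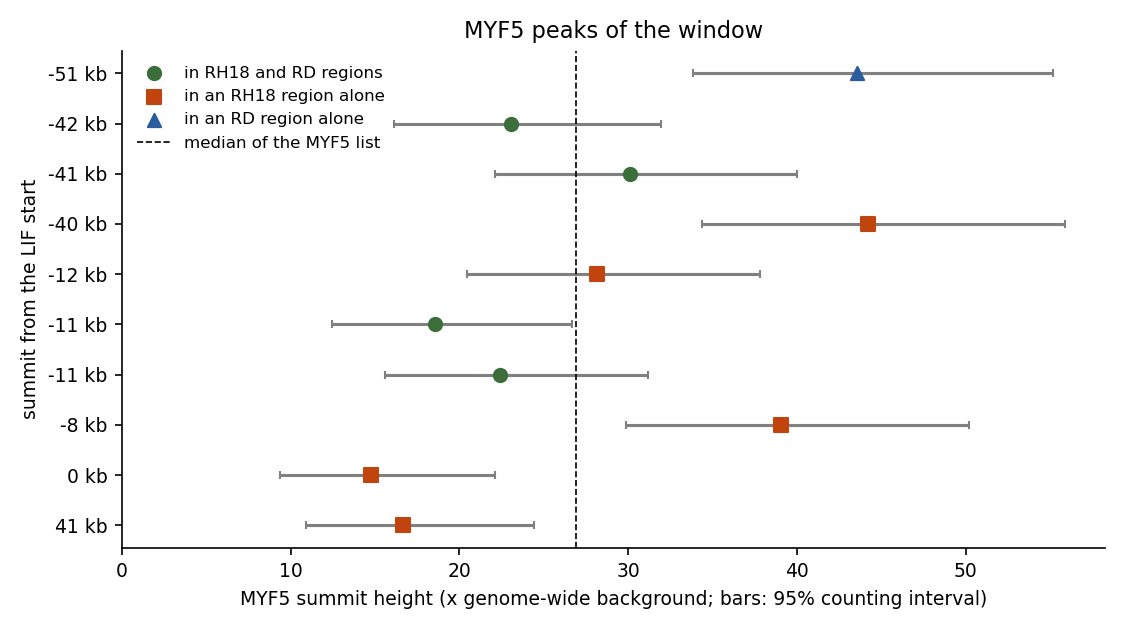
Summit height of the 10 MYF5 peaks (horizontal axis, multiples of the genome-wide background; bars are 95% Poisson counting intervals) ordered by distance of the summit from the rounded LIF start in kb; the dashed line is the list's median of 26.9. Marker shapes give the H3K27ac regions that hold each summit; the peak at the LIF start has the lowest height, 14.7.

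Joined within 12.5 kb, the RH18 regions from 30579209 to 30659775 formed 1 domain of 80.6 kb with 28 regions and 9 MYF5 summits. Its mean fold, weighted by region width, was 45.3, and the 19.3 kb LIF region (fold 61.4) weighed most in it. By the sum of fold times width, which gives each whole region its summit fold, the domain ranked 11 of 18842 RH18 domains. By covered bases it ranked 14. The domain beyond OSM, from 30673888 to 30688454, ranked 539. In RD the stretch was broken into separate domains. The one downstream of LIF, from 30591355 to 30606908 (15.6 kb, 8 regions, 4 MYF5 summits), ranked 147 of 16671, and the one at LIF, from 30631149 to 30642432 (11.3 kb, 4 regions), ranked 2280. Ranks hold within each list and show no change between lines.

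Set beside tiles of 150 kb over the genome, the window was dense in each list. At least 36 RH18 H3K27ac peaks were found in 28 of 20259 tiles (0.138%), at least 10 MYF5 peaks in 40 (0.197%) and at least 15 RD peaks in 442 (2.18%). These shares count tiles without any peak. A peak was present in 9485 tiles for RH18 H3K27ac, 5613 for MYF5 and 8864 for RD. By covered bases, 6 tiles (0.0296%) held at least the 48.7 kb of RH18, 38 (0.188%) the 4.36 kb of MYF5 and 231 (1.14%) the 10.9 kb of RD. The window was placed around its peaks and the tiles were not, so these shares describe the locus and test nothing. The nearest peaks outside the window lay 54.6 kb below and 11.6 kb above it in the RH18 H3K27ac list, 473 kb below and 58.4 kb above in the MYF5 list, and 280.5 kb below and 42.2 kb above in the RD list. Just inside the bounds, the first RH18 region was at 30579209 to 30579586 (fold 30.2) and the last at 30704921 to 30705396 (fold 13.5). Just outside them, the RH18 regions at 30504926 to 30505381 and 30721587 to 30722010 had folds of 14.5 and 6.41. In the MYF5 list the outer members had folds of 21.9 and 8.91 and the nearest peaks outside 15.7 and 9.88. In the RD list the outer members had folds of 11.2 and 6.75 and the nearest regions outside 7.51 and 10.9.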

How the data were processed

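The lists hold 1 library each. Per the submitters' processing notes, BWA 0.7.10, MACS2 2.1.0 and the build hg19 were used, without stated settings. The deposited narrowPeak rows give every peak a position, a summit, a fold (a ratio over the caller's background) and −log10 p and q-values; the deposited score was not used. Tags were recovered from fold and p with the formulas of MACS2; they came out whole within 0.01 tag for 100.0% of peaks in each list. More than 1 whole solution was left for 0.0517% of RH18 H3K27ac, 0.00898% of MYF5 and 0.704% of RD peaks. A tag was worth 0.832, 0.658 and 0.273 pileup units in these lists. The genome-wide background was the lowest value shared by at least 1% of peaks (1.319, 1.027 and 0.638 pileup units). Read totals are not given in the sources used here. Simulated data were used to test tag recovery, the overlap of regions and summits, and the count of joined domains. Later steps, such as covered bases, tiles, height quotients and domain ranks, had no such test. Members and lists were chosen with earlier results of these data known. The named peaks were all MYF5 peaks, the 5 H3K27ac regions of highest fold per line, and peaks within 1 kb of a gene start, plus the outer ones; others named were chosen after their values were seen. Start sites of other interleukin-6 family genes and sequences under peaks were not analysed here, nor were the labelled cell types checked against markers. Domains joined regions within 12.5 kb. Scripts ran in Python 3.11.15 with pandas 2.3.3, numpy 2.4.6 and scipy 1.17.1, and figures were drawn with matplotlib 3.10.9.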

Additional observations from a re-analysis of the deposited data

How the results depend on the processing

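Of 45 alternatives, 32 kept their value within 1.5 times or within its interval and 13 moved. With a −log10 q-value of at least 10, RD had 8 members, 7 of them overlapping RH18 (65.8% of the RD list at that value). Overlaps were compared as counts and not as shares. The 7 therefore counted as moved from 14, while the RD members also fell to 8 from 15. With at least 50% of both regions asked for, 0 RH18 and 0 RD regions overlapped (25.6% and 27.5% of the lists). Within 500 bp of an RD region lay 11 RH18 regions (51.4% of the list). By any overlap, 8 MYF5 peaks met an RD region (55.5% of the list), and by a summit within 500 bp also 8 (62.9%). The top RD domain ranked 265 with joining within 5000 bp and 232 by covered bases. The next values use alternatives chosen after seeing the data. With a −log10 q-value of at least 10, 0 RD regions over LIF were left. The RH18 LIF region ranked 434 by tags and 6 with joining within 1000 bp. Its height over the tallest RD region of the window was 2.27. The cause of these changes was not tested. Alternatives that need hg19 sequence or start sites were not run, and the loci most like this one could not be named for the same reason. No paired analysis was possible because each group had 1 library. Lists ended at unlike thresholds, which limits what an unlisted region shows.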
